A study of Mus musculus with 24 samples.

Results

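The 8 genes described here are mt-Nd1, mt-Nd2, mt-Nd3, mt-Nd4, mt-Nd4l, mt-Nd5, mt-Nd6 and mt-Cytb, the subunits of respiratory complex I and the cytochrome b of complex III that are encoded in the mitochondrial genome of the mouse. They were chosen by symbol, with earlier results of these data known. All 8 were found among the 55414 genes of the count table, and all 8 also passed the filter on low counts. Their identifiers there are ENSMUSG00000064341 (mt-Nd1), ENSMUSG00000064345 (mt-Nd2), ENSMUSG00000064360 (mt-Nd3), ENSMUSG00000064363 (mt-Nd4), ENSMUSG00000065947 (mt-Nd4l), ENSMUSG00000064367 (mt-Nd5), ENSMUSG00000064368 (mt-Nd6) and ENSMUSG00000064370 (mt-Cytb). Bulk RNA-seq was made from 24 D4M tumours, D4M being a mouse melanoma line, grown in C57BL/6 wild-type mice and sampled as whole tissue, 1 library per tumour. The 4 groups of 6 tumours came from mice given brequinar with an antibody against the checkpoint receptor PD-1 (BRQ+PD-1), brequinar with an IgG2a control antibody (BRQ+IgG2a), anti-PD-1 alone (PD-1), or the control antibody alone by intraperitoneal injection (IgG2a). All groups share the tumour line and the host genotype, every mouse received an antibody, and the labels give no dose, duration, age or sex. The design text states the aim as the effect of brequinar combined with anti-PD-1 on the tumour environment.

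Complex I takes electrons from NADH, passes them to ubiquinone in the inner mitochondrial membrane and pumps protons. Cytochrome b lies in complex III, which takes the electrons back out of the reduced ubiquinone. Brequinar inhibits dihydroorotate dehydrogenase (the product of Dhodh), the step of pyrimidine synthesis in that membrane, which also hands its electrons to ubiquinone, so the enzyme and the 8 gene products share 1 electron carrier. The mitochondrial genome is transcribed into long RNAs from both strands, and the transfer RNAs that lie between the genes are cut out to free the messengers.

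Libraries held 19106205 to 34282319 counts. The 37 genes of the mitochondrial genome took 1.112 to 2.125% of them, and the 8 genes alone took 0.615 to 1.24%. Among the markers of pigment cells, Tyr and Dct had 0 counts in all 24 libraries and Tyrp1 in 23, while Mitf was at 11.6 to 48.2 CPM (counts scaled to a common library total) and Axl, found in undifferentiated melanoma, at 603.9 to 1013 CPM; the tumours thus lack the pigment markers that would define melanocytic cells. Skeletal muscle transcripts set 4 libraries apart, namely IgG2a replicates 2 and 3, PD-1 replicate 6 and BRQ+IgG2a replicate 4, which are called muscle-rich: the 17 muscle markers summed to 12648 to 46431 CPM in these and to 27.8 to 1603 CPM in the other 20. Leukocyte markers also differed between groups, summing to 545.3 to 800.8 CPM in BRQ+PD-1, 391.6 to 925.8 CPM in BRQ+IgG2a, 459.9 to 702.3 CPM in PD-1 and 367.3 to 533.6 CPM in IgG2a. The BRQ+IgG2a range overlapped all the others, while those of BRQ+PD-1 and IgG2a did not overlap each other. In the averaged comparison of brequinar described below 6 of 8 were called higher, beside 6.91% of all genes tested. The part of cell composition in any value below was not tested, and in whole tumours fewer cells of a type and less RNA per cell cannot be told apart.

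Sequence was examined first because neighbouring genes overlap and because the nuclear genome carries copies of mitochondrial genes. In the GENCODE M21 annotation (build GRCm38, older than the GRCm39 of the counts and used for no coordinates), 7 of the genes lie on the plus strand of the mitochondrial chromosome and mt-Nd6 lies on the minus strand. The end of mt-Nd4l and the start of mt-Nd4 share 7 bases on the same strand, shown here in capitals because a read there belongs to both genes:
mt-Nd4l end: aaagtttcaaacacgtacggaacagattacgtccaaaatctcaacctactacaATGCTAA
mt-Nd4 start: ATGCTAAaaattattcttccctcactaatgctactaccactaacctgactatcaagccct
The end of mt-Nd5 and the end of mt-Nd6 overlap by 14 bases on opposite strands, and the capitals mark the bases that are complementary:
mt-Nd5 end: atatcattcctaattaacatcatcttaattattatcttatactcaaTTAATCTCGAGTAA
mt-Nd6 end: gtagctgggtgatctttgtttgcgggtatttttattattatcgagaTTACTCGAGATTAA
The sources used here do not state whether counting used strand. Without that, counts of mt-Nd6 cannot be told from RNA made off the opposite strand.

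Transcripts annotated elsewhere in the genome, nearly all of them pseudogenes, were then compared with each gene by BLAST, keeping matches of at least 80% identity over at least 100 bases. Gm28438 on chromosome 1 matched mt-Nd3 over 345 of its bases with 1 difference, T3C (positions counted from 1 at the 5′ end of mt-Nd3, its base first), and Gm10222 on the same chromosome matched mt-Nd4l over 294 bases with 0 differences. Gm28439, also on chromosome 1, was identical to mt-Nd4 over 876 bases, 63.6% of that gene. The best matches of the other genes were less alike, at 96.7% for mt-Nd2 (Gm13339), 95.2% for mt-Nd5 (Gm4076), 93.6% for mt-Nd6 (Gm11408, 33 differences in 519 bases) and 92.9% for mt-Cytb (Gm11410), and mt-Nd1 had no match in this search. The first 90 bases of mt-Nd3 and mt-Nd6 with their copies show the contrast, capitals marking the bases that differ:
mt-Nd3: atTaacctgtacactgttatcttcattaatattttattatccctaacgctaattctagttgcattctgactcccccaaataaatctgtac
Gm28438: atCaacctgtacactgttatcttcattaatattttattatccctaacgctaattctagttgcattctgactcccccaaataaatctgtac
mt-Nd6: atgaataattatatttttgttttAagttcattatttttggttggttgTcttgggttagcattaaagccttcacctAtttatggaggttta
Gm11408: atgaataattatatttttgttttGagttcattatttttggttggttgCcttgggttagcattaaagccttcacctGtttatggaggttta
Within the matched stretches, a read from mt-Nd4l, or from mt-Nd3 past its base 3, has the same letters as the nuclear copy. The sources used here do not say how reads matching more than 1 place were counted.

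The 8 genes spanned a 346-fold range of level per length, and the least counted were those with a near-identical nuclear copy. In CPM per kilobase of gene, averaged over the 24 tumours, mt-Cytb stood at 2251 ± 453.9 (SD), mt-Nd1 at 2030 ± 520.9 and mt-Nd2 at 1045 ± 280.1. Next came mt-Nd6 at 786.1 ± 220.7, mt-Nd4 at 768.6 ± 189.5 and mt-Nd5 at 636.8 ± 150.6. mt-Cytb and mt-Nd1, mt-Nd6 and mt-Nd4, and mt-Nd4 and mt-Nd5 are neighbours whose means lie closer than the smaller of their 2 SDs. mt-Nd2 and mt-Nd6 lie closer than the larger SD only, and mt-Nd1 and mt-Nd2 further apart than either. Far below them were mt-Nd3 at 25.5 ± 5.58 and mt-Nd4l at 6.51 ± 2.16 per kilobase, 88.4-fold and 345.7-fold below mt-Cytb, although mt-Nd4l is carried on the same primary RNA as its neighbour mt-Nd4. The other mitochondrial messengers fell the same way on this scale. mt-Co2, mt-Co3 and mt-Atp6, each with a copy of at least 99% identity over at least 98% of the gene, stood at 24.2, 18.5 and 20.6 per kilobase, against 3847 for mt-Co1, whose copy of that identity covers part of the gene. mt-Atp8, which overlaps mt-Atp6, stood at 0.547 per kilobase, and the search found no such copy of it. That search covered annotated transcripts only, so it cannot show that mt-Atp8 lacks a copy. The copies of mt-Co2 and mt-Atp6, the messengers on either side of it, both lie on chromosome 1. These classes were drawn after the levels were seen and are given without a test.

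**Figure D1:**
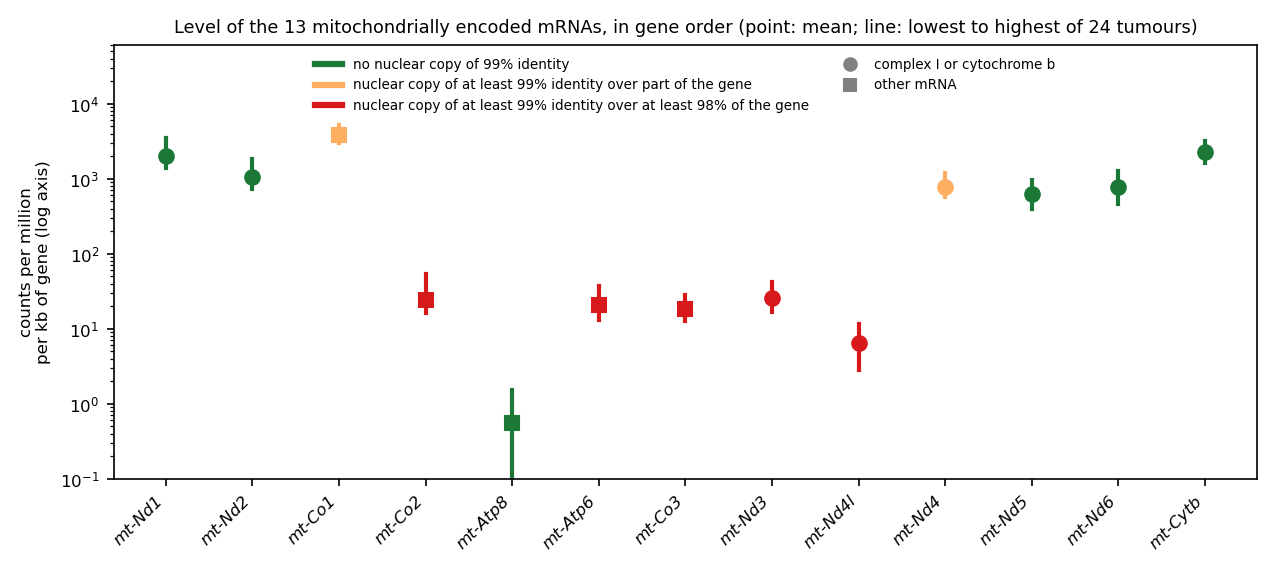
Level of the 13 mitochondrially encoded messengers in their order along the genome, in CPM per kilobase on a log axis; points are means over 24 tumours, lines run from the lowest to the highest tumour (clipped at the axis for mt-Atp8, whose lowest value is 0), circles are the 8 genes and squares the other 5. The 5 genes in red, with near-identical nuclear copies over nearly their whole length, lie between 6.51 and 25.5, while the 6 other complex I and cytochrome b genes lie between 636.8 and 2251.

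In absolute terms mt-Nd4l rested on 17 to 89 counts per library and mt-Nd3 on 132 to 380, so both carry more counting error than mt-Nd6 (5407 to 18743 counts) or mt-Cytb (39563 to 102698 counts). The nuclear copies were counted at a similar order: Gm28438 averaged 2.10 ± 0.93 CPM in BRQ+PD-1, 2.56 ± 1.15 in BRQ+IgG2a, 2.73 ± 2.54 in PD-1 and 3.72 ± 2.30 in IgG2a (SD, n = 6 each). Gm10222 averaged 1.1 ± 0.58, 1.23 ± 0.35, 1.04 ± 0.38 and 1.18 ± 0.56 CPM in BRQ+PD-1, BRQ+IgG2a, PD-1 and IgG2a. The single values of mt-Nd3 and mt-Nd4l are therefore uncertain as measures of mitochondrial RNA. The level of mt-Nd4 is open to the same doubt over the 63.6% of the gene that Gm28439 matches.

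No treatment moved any of the 8 genes past the threshold. With edgeR's quasi-likelihood test, fitted to 16029 genes and called at a Benjamini-Hochberg adjusted p under 0.05, 0 of 8 genes were called in each of the 7 comparisons. The share of all genes called was 3.46% for BRQ+IgG2a against IgG2a, 0.0187% for PD-1 against IgG2a, 3.91% for BRQ+PD-1 against IgG2a, 5.04% for BRQ+PD-1 against PD-1 and 0% for BRQ+PD-1 against BRQ+IgG2a. For the brequinar effect averaged over both antibodies it was 12.5%, and for the interaction of brequinar with anti-PD-1 it was 0%. By direction, 2.96% of genes were called higher and 0.493% lower for BRQ+IgG2a against IgG2a, 2.48% higher and 1.43% lower for BRQ+PD-1 against IgG2a, and 2.38% higher and 2.66% lower for BRQ+PD-1 against PD-1. At these shares, fewer than 1 or about 1 of 8 genes would be called if the 8 were like the rest, so a count of 0 does not set them apart. At an unadjusted p under 0.05 there were 2 of the 8 for BRQ+PD-1 against PD-1, 2 for the averaged effect, 1 for the interaction and 0 in the other 4 comparisons. Over all genes that share was 21.4% for BRQ+PD-1 against PD-1, 27.7% for the averaged effect and 7.62% for the interaction, so these counts of members are near the background. For the 2 comparisons in which edgeR called 0 of all genes, 1168 and 1222 genes had an unadjusted p under 0.05, while DESeq2 called 4 and 13 and limma voom called 620 and 272, none of them among the 8.

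**Figure D2:**
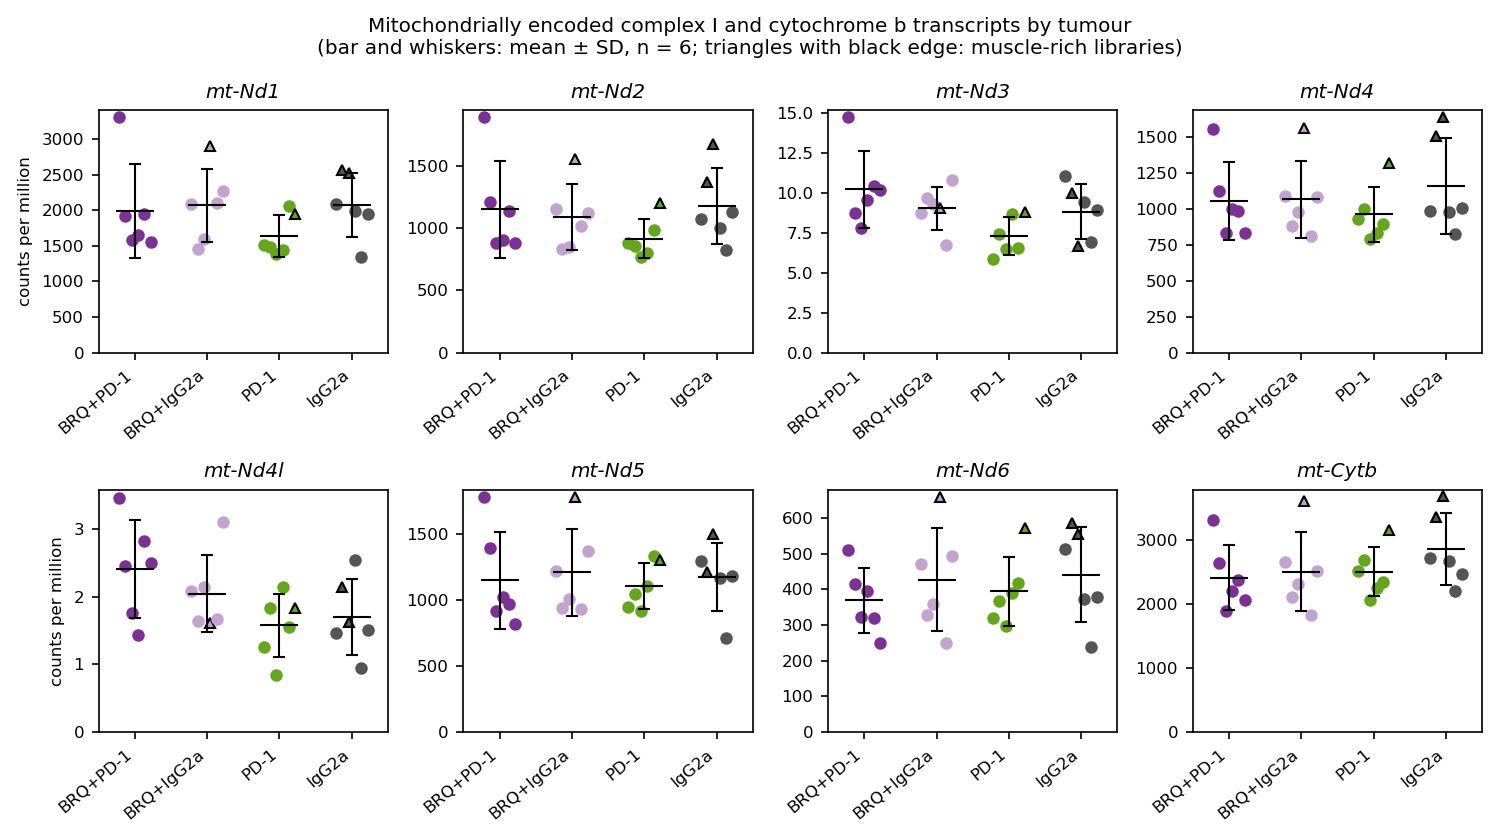
CPM of each gene in every tumour, by group; horizontal bars and whiskers are the mean and SD of 6 tumours, and triangles with a black edge are the 4 muscle-rich libraries. The groups overlap in every panel, and the highest tumour in the mt-Nd1, mt-Nd2, mt-Nd3 and mt-Nd4l panels is BRQ+PD-1 replicate 1.

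mt-Cytb, which binds the haem groups of complex III and oxidises reduced ubiquinone, was the most abundant of the 8. Its lowest, median and highest values were 1899, 2289 and 3313 CPM in BRQ+PD-1 tumours, 1835, 2423 and 3609 CPM in BRQ+IgG2a, 2071, 2442 and 3165 CPM in PD-1 and 2207, 2702 and 3701 CPM in IgG2a. The groups overlapped over most of their range, and 5 of 6 tumours of each treated group lay below the IgG2a mean of 2861 CPM. That mean includes the muscle-rich IgG2a replicates 2 and 3, at 3374 and 3701 CPM. The remaining IgG2a tumours, at 2207 to 2730 CPM, also lay below it. The log2 fold change was -0.23 ± 0.17 (SE) for BRQ+PD-1 against IgG2a, -0.20 ± 0.17 for BRQ+IgG2a against IgG2a and -0.21 ± 0.17 for PD-1 against IgG2a, with edgeR adjusted p of 0.419, 0.627 and 0.864; these 3 comparisons share the IgG2a tumours. The averaged brequinar effect was a fold of 0.925 with a 95% interval from 0.780 to 1.10. Without the 4 muscle-rich libraries the averaged log2 fold change was -0.05 ± 0.10.

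mt-Nd1, which sits where the membrane arm of complex I meets the ubiquinone channel, ran at 1547, 1782 and 3304 CPM (lowest, median, highest) in BRQ+PD-1, 1463, 2090 and 2895 CPM in BRQ+IgG2a, 1381, 1500 and 2064 CPM in PD-1 and 1338, 2035 and 2558 CPM in IgG2a. All 6 PD-1 tumours were below the IgG2a mean, though within its range. The log2 fold change for PD-1 against IgG2a was -0.36 ± 0.21 (edgeR adjusted p = 0.801), for BRQ+PD-1 against PD-1 it was 0.32 ± 0.21 (0.385) and for the averaged brequinar effect it was 0.15 ± 0.15 (0.521). Leaving out BRQ+PD-1 replicate 1 brought the value against PD-1 to 0.08 and the averaged value to 0.03.

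mt-Nd2, mt-Nd4 and mt-Nd5 encode the proton-pumping subunits of the membrane arm. For mt-Nd2 the lowest, median and highest values were 879.3, 1022 and 1890 CPM in BRQ+PD-1, 829.9, 1070 and 1560 CPM in BRQ+IgG2a, 770.7, 867.0 and 1204 CPM in PD-1 and 822.3, 1102 and 1676 CPM in IgG2a. For mt-Nd4 the range was 829.3 to 1554 CPM in BRQ+PD-1, 808.6 to 1559 in BRQ+IgG2a, 789.0 to 1321 in PD-1 and 823.5 to 1641 in IgG2a. For mt-Nd5 it was 816.3 to 1778 CPM in BRQ+PD-1, 928.5 to 1783 in BRQ+IgG2a, 914.4 to 1332 in PD-1 and 714.2 to 1499 in IgG2a. The PD-1 group had the lowest maximum for all 3 genes. Its highest tumour was the muscle-rich PD-1 replicate 6 for mt-Nd2 and mt-Nd4, and PD-1 replicate 5, not muscle-rich, for mt-Nd5. In the other groups the highest tumour was either muscle-rich or BRQ+PD-1 replicate 1. The averaged brequinar effect was 0.12 ± 0.15 for mt-Nd2, 0.02 ± 0.14 for mt-Nd4 and 0.06 ± 0.15 for mt-Nd5 (log2, edgeR adjusted p 0.630, 0.952 and 0.838).

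mt-Nd6, a small membrane subunit and the only one of the 8 read from the other strand, ran at 250.8, 359.0 and 511.7 CPM in BRQ+PD-1, 250.7, 415.0 and 658.7 CPM in BRQ+IgG2a, 298.2, 378.4 and 572.1 CPM in PD-1 and 238.5, 446.2 and 585.9 CPM in IgG2a (lowest, median, highest). The groups overlapped throughout. It was the only gene besides mt-Cytb with a negative averaged brequinar effect, -0.06 ± 0.16 (log2, edgeR adjusted p = 0.837), and that value moved to 0.03 ± 0.15 without the muscle-rich libraries. Its ratio to mt-Cytb, a gene of the other strand, was 15.3 ± 2.16 per 100 counts in BRQ+PD-1, 16.7 ± 2.17 in BRQ+IgG2a, 15.6 ± 2.34 in PD-1 and 15.2 ± 2.77 in IgG2a (SD, n = 6 each), so the means lay closer together than the tumours of 1 group.

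The 2 genes with near-identical nuclear copies had the largest values of the 8 for BRQ+PD-1 against PD-1 and for the averaged effect, but for BRQ+IgG2a against IgG2a mt-Nd3 was among the smallest. mt-Nd3, whose product carries the flexible loop that moves as complex I switches between its active and resting states, ran at 7.82, 9.86 and 14.7 CPM in BRQ+PD-1, 6.72, 9.20 and 10.8 CPM in BRQ+IgG2a, 5.86, 6.99 and 8.79 CPM in PD-1 and 6.66, 9.20 and 11.1 CPM in IgG2a (lowest, median, highest). All 6 BRQ+PD-1 tumours were above the PD-1 mean, and the ranges overlapped between 7.82 and 8.79 CPM. The log2 fold change was 0.52 ± 0.16 for BRQ+PD-1 against PD-1, a fold of 1.44 with a 95% interval from 1.14 to 1.81, with an adjusted p of 0.0616 in edgeR's quasi-likelihood test. DESeq2 gave an adjusted p of 0.0286 and limma voom with quality weights 0.0294, and these were the 2 calls among 9 alternatives, which ran up to 0.154. In the 12 edgeR fits that left out 1 library, adjusted p ran from 0.0477 (without PD-1 replicate 4) and 0.0497 (without BRQ+PD-1 replicate 4) to 0.171 (without BRQ+PD-1 replicate 1, log2 fold change 0.36). Against IgG2a the same BRQ+PD-1 tumours differed by 0.23 ± 0.16 (adjusted p = 0.400), and PD-1 against IgG2a by -0.29 ± 0.16 (0.798). Brequinar without anti-PD-1, BRQ+IgG2a against IgG2a, gave 0.03 ± 0.16 (edgeR adjusted p = 0.967), beside the 0.52 between the groups given anti-PD-1. The interaction, the test of that difference, was 0.50 ± 0.23 (edgeR adjusted p = 0.636).

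mt-Nd4l, a small hydrophobic subunit next to the ubiquinone channel, ran at 1.43, 2.48 and 3.45 CPM in BRQ+PD-1, 1.62, 1.88 and 3.11 CPM in BRQ+IgG2a, 0.839, 1.69 and 2.15 CPM in PD-1 and 0.954, 1.56 and 2.55 CPM in IgG2a (lowest, median, highest). The groups overlapped, and 5 of 6 BRQ+PD-1 tumours lay above the PD-1 mean. The log2 fold change for BRQ+PD-1 against PD-1 was 0.64 ± 0.27 (edgeR adjusted p = 0.170). For the averaged brequinar effect it was 0.44 ± 0.19, a fold of 1.36 with a 95% interval from 1.03 to 1.79 (edgeR adjusted p = 0.133), beside 0.27 ± 0.11 for mt-Nd3 (0.117). Limma voom called both averaged values, at adjusted p of 0.0287 for mt-Nd4l and 0.0424 for mt-Nd3; over the 9 alternatives these ran up to 0.239 and 0.252, and over the 24 fits that left out 1 library from 0.0752 to 0.241 and from 0.0858 to 0.226.

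The nuclear copies were read in the same fits, and no difference between a copy and its gene was tested. Gm28438, the copy of mt-Nd3, had a log2 fold change of -0.33 ± 0.47 for BRQ+PD-1 against PD-1 and -0.45 ± 0.33 for the averaged effect, and Gm10222, the copy of mt-Nd4l, had 0.13 ± 0.36 and 0.09 ± 0.25; 0 of these 4 values were called by edgeR, with adjusted p from 0.382 to 0.865. The near-identical copies of the other messengers had positive values like their genes. For BRQ+PD-1 against PD-1, Gm10925 (copy of mt-Atp6) had 0.43 ± 0.19, Gm28437 (mt-Co3) 0.25 ± 0.19 and Gm28661 (mt-Co2) 0.23 ± 0.25. For the averaged effect they had 0.26 ± 0.13, 0.09 ± 0.13 and 0.08 ± 0.18. Of these 6 values 0 were called by edgeR (adjusted p 0.181 to 0.798). The less alike copies tested had negative values, as did the near-identical Gm28438. Gm13341 (95.9% identical to mt-Co2, mean 0.799 CPM) had -0.59 ± 0.37 and, averaged, -0.81 ± 0.26, the latter called by edgeR (adjusted p = 0.0438). Gm13340 (97.6%, mt-Co1) had -0.02 ± 0.21 and -0.13 ± 0.15. The partial copies Gm28439 (mt-Nd4) and Gm29216 (mt-Co1) had 0.11 and 0.06, and averaged 0.06 and 0.14. Over the 5 mitochondrial messengers with a near-identical copy, averaged values ran from 0.25 to 0.44, whereas they ran from -0.11 to 0.15 over the 5 tested without one and were 0.02 and 0.13 for mt-Nd4 and mt-Co1, with a partial copy. For BRQ+PD-1 against PD-1 the same classes ran from 0.43 to 0.64, from -0.06 to 0.37, and at 0.17 and 0.18. The classes were drawn after these values were seen, the libraries are the same in each, and the part of shared reads in the difference was not tested.

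**Figure D3:**
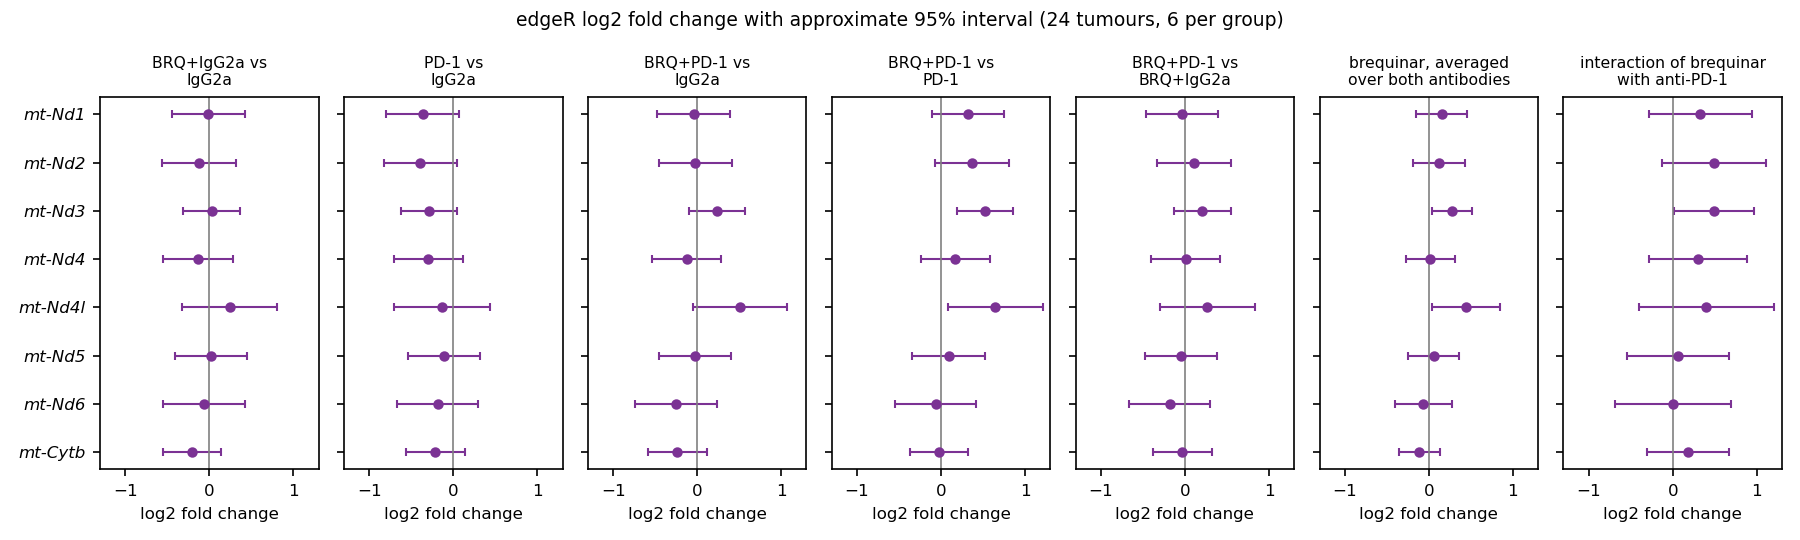
Log2 fold change of the 8 genes in the 7 comparisons from the edgeR fit over 24 tumours; points are estimates and whiskers approximate 95% intervals, and the vertical line marks no difference. All 8 estimates lie left of it for PD-1 against IgG2a, while the mt-Nd3 and mt-Nd4l intervals lie right of it for BRQ+PD-1 against PD-1 and for the averaged effect. For the interaction the mt-Nd3 interval also lies right of the line (edgeR adjusted p = 0.636).

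As a set, the 8 genes had a median log2 fold change of -0.25 for PD-1 against IgG2a, with 8 of 8 negative (range -0.39 to -0.11, edgeR adjusted p 0.782 to 0.967), beside a median of -0.0005 over all genes tested. For BRQ+PD-1 against PD-1 the median was 0.24 with 6 of 8 positive, and for the interaction it was 0.32 with 8 of 8 positive, beside 0.01 and -0.003 over all genes; both comparisons use the PD-1 tumours, so they are not separate observations. Both rest largely on BRQ+PD-1 replicate 1. Without it the median was 0.03 with 4 of 8 positive for BRQ+PD-1 against PD-1 and 0.11 with 6 of 8 positive for the interaction. For BRQ+PD-1 against IgG2a it was then -0.27 with 2 of 8 positive. The count of positive interaction values was 7 with relative log expression factors, DESeq2, no filter or the replicate block, and 5 with limma voom, where the median was 0.12. Over the 9 alternatives mt-Nd5 went as low as -0.16 and mt-Nd6 as low as -0.21. For BRQ+PD-1 against IgG2a, BRQ+IgG2a against IgG2a, BRQ+PD-1 against BRQ+IgG2a and the averaged effect the medians were -0.03, -0.04, -0.01 and 0.09. Without the 4 muscle-rich libraries the median for PD-1 against IgG2a was -0.09, still with 0 of 8 positive. The genes are neighbours cut from shared RNAs and are not independent, and no test of the set was made.

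The amount of these transcripts differed more between tumours of 1 group than between groups. The 8 genes together took 0.814 ± 0.224% of counts in BRQ+PD-1, 0.838 ± 0.205% in BRQ+IgG2a, 0.754 ± 0.115% in PD-1 and 0.890 ± 0.195% in IgG2a (SD, n = 6 each). The muscle-rich libraries stood high on most of them. mt-Nd6 was at 555.7 to 658.7 CPM in the 4 muscle-rich libraries, against 238.5 to 512.5 CPM in the other 20, with no overlap. mt-Nd4 was at 1321 to 1641 CPM, against 789.0 to 1554 CPM, and mt-Cytb at 3165 to 3701 CPM, against 1835 to 3313 CPM, where BRQ+PD-1 replicate 1 was the highest of the 20. mt-Nd3, at 6.66 to 9.98 CPM in the 4 and 5.86 to 14.7 CPM in the 20, and mt-Nd4l, at 1.62 to 2.14 and 0.839 to 3.45 CPM, were not set apart. The muscle-rich libraries were 0 of 6 in BRQ+PD-1, 1 of 6 in BRQ+IgG2a, 1 of 6 in PD-1 and 2 of 6 in IgG2a. Without them the 8 genes took 0.814, 0.764, 0.714 and 0.779% of counts in those groups. Since the libraries were set apart by muscle genes of the same samples, these values carry no test.

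Muscle content also went with the balance among mitochondrial messengers. The 8 genes made up 61.5 to 62.2% of counts on the 13 messengers in the muscle-rich libraries, against 48.7 to 61.2% in the other 20. The remaining messenger counts were nearly all of mt-Co1, at a mean of 5944 CPM. mt-Co2, mt-Co3, mt-Atp6 and mt-Atp8 averaged 16.5, 14.5, 14.0 and 0.112 CPM. This share thus nearly sets the 8 genes against mt-Co1, and the ratios to mt-Co1 that follow are not separate observations. For every 100 counts of mt-Co1, a core subunit of cytochrome c oxidase, mt-Cytb had 48.3 to 54.7 in the muscle-rich libraries and 25.3 to 51.6 in the others. BRQ+PD-1 replicate 1 had the highest share of all 24 libraries, 1.24% of counts, with muscle markers at only 44.3 CPM. BRQ+IgG2a replicate 5 stood at the other end of the balance: the 8 genes made up 48.7% of its messenger counts, it had 25.3 counts of mt-Cytb and 3.45 of mt-Nd6 per 100 of mt-Co1, and mitochondrial ribosomal RNA took 0.0926% of its counts, against at most 0.0636% in any other library.

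**Figure D4:**
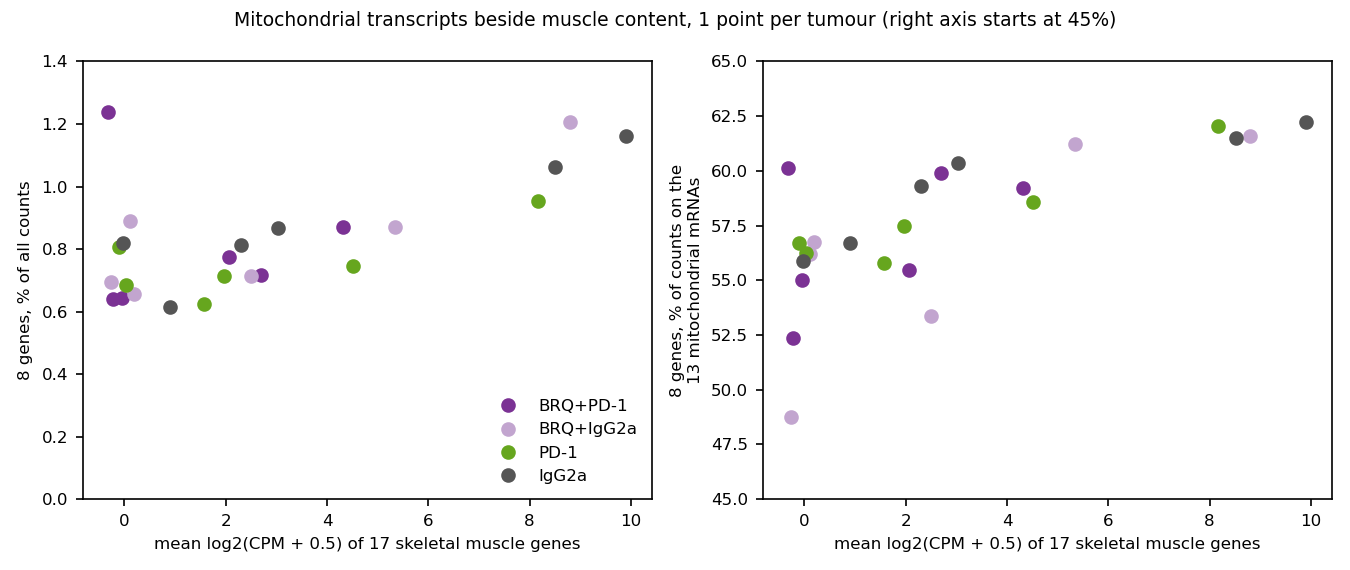
Share of the 8 genes in all counts (left, axis from 0) and in the counts of the 13 mitochondrial messengers (right, axis from 45%) against the mean log2(CPM + 0.5) of 17 skeletal muscle genes, 1 point per tumour, coloured by group. Counts of the 13 messengers outside the 8 genes are nearly all of mt-Co1. The 4 muscle-rich libraries lie at the right, at 0.953 to 1.21% and 61.5 to 62.2%; the point at 1.24% on the left is BRQ+PD-1 replicate 1 and the lowest point at 48.7% is BRQ+IgG2a replicate 5.

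Some pairs of genes kept closer proportions from tumour to tumour than others. Over the 24 libraries, the log2 ratio of mt-Nd4 to mt-Cytb had an SD of 0.11, and that of mt-Nd1 to mt-Nd2 had an SD of 0.12, while the single genes had SDs of 0.28 (mt-Cytb) to 0.49 (mt-Nd4l). Among the 6 genes without a near-identical copy over nearly their whole length, the other ratios had SDs up to 0.28 (mt-Nd2 to mt-Nd6, and mt-Nd1 to mt-Nd6 with a 2.45-fold range), as wide as mt-Cytb alone. The widest ratio of all was mt-Nd4l to mt-Nd6, with an SD of 0.54. Counts of 1 library share its depth, and low counts widen the ratios of mt-Nd4l.

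The genes most like the 8 in their pattern over the libraries were ranked by the root mean square difference from the mean standardised log2 CPM profile of the 8. Members themselves were 0.36 (mt-Nd2) to 0.85 (mt-Nd3 and mt-Nd4l) SD from that profile, and the median gene was 1.402 SD from it. Over 24 libraries the nearest outside the mitochondrial genome were Ppp6c (0.51), Gm28439 (0.64), Gm28437 (0.64), Kat2b (0.67) and Agtpbp1 (0.67), of which Gm28439 and Gm28437 are the nuclear copies of mt-Nd4 and mt-Co3. Within the mitochondrial genome they were mt-Co1 (0.64) and the transfer RNA genes mt-Ts2 (0.73), mt-Tn (0.75), mt-Tl2 (0.78) and mt-Tl1 (0.81). Over the 20 libraries that were not muscle-rich, Ppp6c was again the nearest (0.57), followed by Nek7 (0.58), Slc25a16 (0.59), Cdc42 (0.60) and Fam98b (0.61), and mt-Ts2, mt-Co1, mt-Tl2, mt-Co3 and mt-Atp6 were the nearest mitochondrial genes (0.65 to 0.79). These distances are descriptions over libraries that share depth and tissue content.

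The remaining mitochondrial RNAs were read for comparison in the averaged brequinar effect, in which 6.91% of all genes were called higher and 5.57% lower. Of the other messengers, 1 of 4 tested was higher: mt-Atp6, the proton channel subunit of ATP synthase, averaged 16.7 ± 5.17 CPM in BRQ+PD-1 and 14.9 ± 1.88 in BRQ+IgG2a, against 12.1 ± 2.07 in PD-1 and 12.4 ± 1.88 in IgG2a (SD, n = 6 each). The averaged difference was 0.38 ± 0.12 in log2 with edgeR adjusted p = 0.0480. That call was kept in 6 of 24 fits that left out 1 library (adjusted p up to 0.0869, without BRQ+PD-1 replicate 1) and in 3 of 9 other alternatives, and mt-Atp6 is among the genes with a near-identical nuclear copy. Of the ribosomal RNAs 0 of 2 were called, mt-Rnr1 standing at 0.37 ± 0.24 (edgeR adjusted p = 0.331).

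The nuclear complex I subunits leaned lower with few calls. Of 36 nuclear complex I subunits, 0 were higher and 1 was lower in the averaged effect, with a median log2 fold change of -0.17 beside 0.09 for the 8 mitochondrial genes and 0.007 for all genes. The called gene was Ndufs6, a subunit of the NADH-oxidising arm, at 19.4 ± 6.76 CPM in BRQ+PD-1 and 21.8 ± 3.001 in BRQ+IgG2a, against 26.0 ± 3.58 in PD-1 and 29.4 ± 8.29 in IgG2a, a log2 fold change of -0.42 ± 0.14 (edgeR adjusted p = 0.0483, kept in 7 of 24 leave-one-out fits; 0.220 without the muscle-rich libraries). For BRQ+PD-1 against IgG2a the 8 mitochondrial genes had a median of -0.03 with 2 of 8 positive, and a lower one without BRQ+PD-1 replicate 1. In the same comparison the median of the 36 was -0.32, 26 had an unadjusted p under 0.05 (3727 of 16029 genes, or 23.3%, over all genes), and 1 was called. This was Ndufa10, an accessory subunit, at 73.1 ± 5.78 CPM in BRQ+PD-1 and 91.8 ± 8.87 in IgG2a, with no overlap (-0.32 ± 0.08, edgeR adjusted p = 0.0237). That call was kept in 9 of 12 leave-one-out fits and lost without IgG2a replicate 1, IgG2a replicate 3 or BRQ+PD-1 replicate 2, with edgeR adjusted p up to 0.0599. Without the muscle-rich libraries the value was -0.24 ± 0.07 (edgeR adjusted p = 0.0596), and 5 of 9 alternatives made the call, with adjusted p up to 0.0653. Of 14 assembly factors of complex I 0 were called, the lowest p being that of Ndufaf2 (-0.27 ± 0.12, edgeR adjusted p = 0.134).

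Of 15 nuclear genes of complex III and its assembly, 0 were higher and 2 were lower in the averaged effect, both small subunits of the complex that holds cytochrome b. Uqcrb averaged 37.7 ± 8.92 CPM in BRQ+PD-1 and 43.3 ± 6.75 in BRQ+IgG2a, against 51.9 ± 11.01 in PD-1 and 56.4 ± 13.8 in IgG2a (-0.42 ± 0.12, edgeR adjusted p = 0.0242). Uqcrq changed by -0.38 ± 0.12 (edgeR adjusted p = 0.0450), a call kept in 10 of 24 leave-one-out fits against 24 of 24 for Uqcrb. Without the muscle-rich libraries both lost the call, at adjusted p of 0.126 and 0.196 and log2 fold changes of -0.25 and -0.26. The summed muscle markers reached 819.5 CPM in BRQ+PD-1, 17001 CPM in BRQ+IgG2a, 12648 CPM in PD-1 and 46431 CPM in IgG2a; their part in these values was not tested.

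Among the other enzymes that reduce ubiquinone, 1 of 9 was higher and 0 were lower in the averaged effect. Sqor, which oxidises hydrogen sulfide and passes the electrons to ubiquinone, averaged 17.3 ± 1.69 CPM in BRQ+PD-1 and 15.7 ± 2.18 in BRQ+IgG2a, against 9.97 ± 1.91 in PD-1 and 11.4 ± 2.63 in IgG2a (SD, n = 6 each). Its lowest BRQ+PD-1 tumour, at 14.1 CPM, lay above the highest PD-1 tumour, at 12.95 CPM. The averaged log2 fold change was 0.64 ± 0.11 (edgeR adjusted p = 0.000878), and the call was kept in each of the 24 leave-one-out fits and in all 9 other alternatives run. Dhodh itself, the target of brequinar, was at 12.4 ± 2.48, 12.6 ± 1.51, 13.01 ± 0.89 and 13.7 ± 2.07 CPM in BRQ+PD-1, BRQ+IgG2a, PD-1 and IgG2a and was called in none of the 7 comparisons by edgeR (averaged -0.09 ± 0.08, adjusted p = 0.472). Of 13 genes of ubiquinone synthesis 0 were called, the lowest p being that of Coq5, a methyltransferase of the pathway (-0.22 ± 0.08, edgeR adjusted p = 0.0683).

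Genes that copy, transcribe and process the mitochondrial genome were read from the same fit. In transcription 0 of 11 were higher and 1 was lower: Mrpl12, a mitoribosomal protein that also binds the mitochondrial RNA polymerase, averaged 59.5 ± 10.7 CPM in BRQ+PD-1 and 70.2 ± 6.29 in BRQ+IgG2a, against 79.8 ± 12.1 in PD-1 and 80.9 ± 10.6 in IgG2a (-0.31 ± 0.07, edgeR adjusted p = 0.00817, kept in each of the 24 leave-one-out fits and in the 9 others run). In RNA processing 0 of 19 were higher and 2 were lower. Tbrg4 (FASTKD4), which stabilises mitochondrial messengers, averaged 42.4 ± 3.55 CPM in BRQ+PD-1 and 48.0 ± 4.61 in BRQ+IgG2a, against 56.6 ± 6.41 in PD-1 and 54.1 ± 4.45 in IgG2a (-0.28 ± 0.06, edgeR adjusted p = 0.00296, called in the same 33 fits). All 6 BRQ+PD-1 tumours lay below every PD-1 tumour for this gene. Fastkd5, of the same family and needed to release messengers that no transfer RNA borders, changed by -0.37 ± 0.10 (edgeR adjusted p = 0.0185; 0.0741 without the muscle-rich libraries).

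In upkeep of the mitochondrial DNA and its nucleotide supply, 1 of 12 was higher and 3 were lower in the averaged effect. Slc25a33, a carrier of pyrimidine nucleotides into mitochondria, averaged 7.62 ± 1.295 CPM in BRQ+PD-1 and 8.43 ± 1.99 in BRQ+IgG2a, against 11.6 ± 2.94 in PD-1 and 13.1 ± 4.56 in IgG2a (-0.61 ± 0.15, edgeR adjusted p = 0.0124, kept in each of the 24 leave-one-out fits and in the 9 others run). Tk2, the mitochondrial thymidine kinase that salvages pyrimidine deoxynucleosides, rose by 0.22 ± 0.06 on the log2 scale (edgeR adjusted p = 0.0229, called in 22 of the 24 fits, the highest adjusted p being 0.0513 without BRQ+IgG2a replicate 6). Ssbp1, the single-strand binding protein of the replication fork, and Twnk, its helicase, changed by -0.32 ± 0.09 and -0.18 ± 0.06 (edgeR adjusted p 0.0235 and 0.0469; 0.0697 and 0.0541 without the muscle-rich libraries), and the call of Twnk was kept in 10 of the 24 fits. The medians of the 3 lists were -0.05, -0.10 and -0.10.

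**Figure D5:**
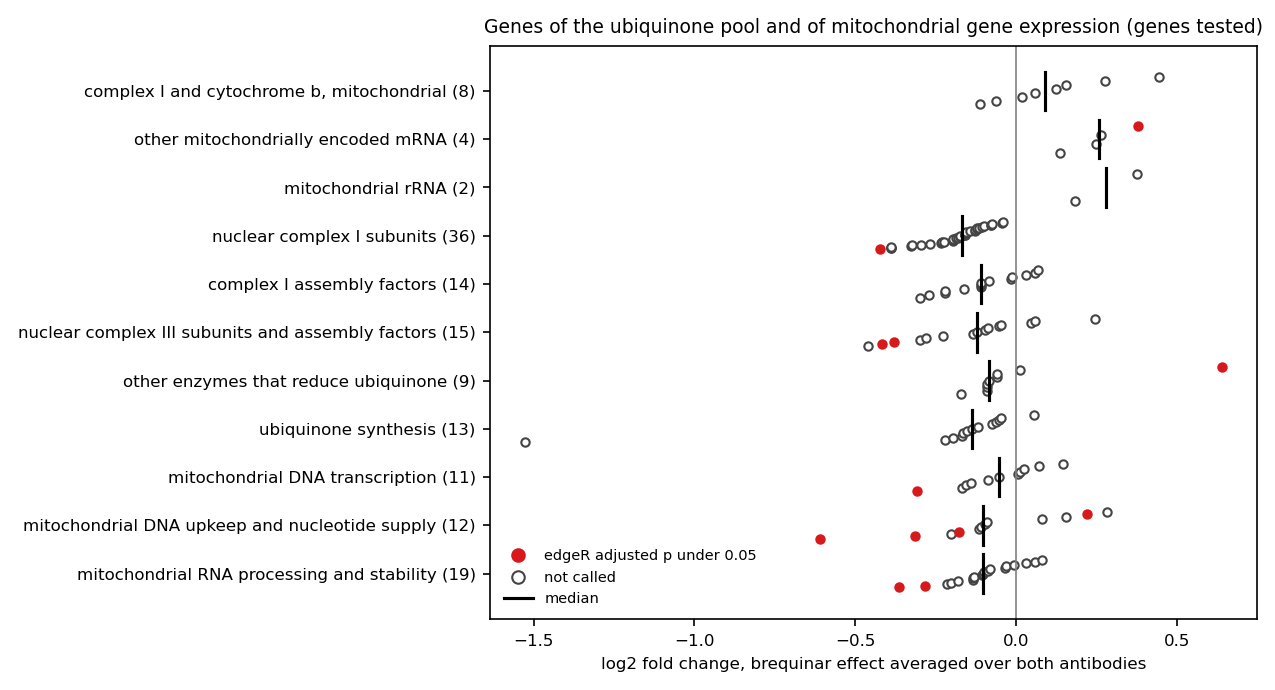
Averaged brequinar log2 fold change of every tested gene in the lists, 1 point per gene; red points are called by edgeR, open points are not, black bars are list medians, and the number tested is in brackets. The 8 genes at the top have a median of 0.09 with 0 called, the 36 nuclear complex I subunits lie left of 0, and the open point near -1.53 is Coq8a, an uncalled gene of ubiquinone synthesis (SE 0.76) named here after its value was seen.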

How the data were processed

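Each of 24 tumours gave 1 library. The submitters' processing notes name HISAT2 2.2.1, StringTie 2.2.1, FastQC 0.11.8, Trim Galore 0.6.7 and MultiQC 1.11, and build GRCm39. Not given in the sources used here: which program counted reads, with what annotation, and whether by strand. The deposited table holds whole-number counts, not normalized by the authors; the deposited FPKM and TPM tables, as used here, hold 0 mitochondrial genes and were not used.

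Counts were fitted with edgeR 4.0.16 (R 4.3.3; TMM, filterByExpr, robust quasi-likelihood F test, group as the only term, 20 residual degrees of freedom), with p-values adjusted over 16029 genes and called under 0.05. Errors of fold changes are SEs derived from the F statistic, and intervals are approximate 95% intervals. CPM values use library totals. DESeq2 1.42.0, limma 3.58.1 voom, other filters and factors, a replicate block and leaving libraries out were alternatives. The fit was also run on counts simulated from its own estimates, a check of the code and not of the results given here. Symbols, lengths and sequences came from GENCODE M21, and copies from BLAST 2.17.0.

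The genes and lists were chosen with earlier results of these data known. Named from each list were called genes (the 4 lowest adjusted p at most), otherwise the lowest p, plus Dhodh and the 5 genes nearest in pattern. The labels call replicates biological, and p-values set differences between groups against the spread between tumours. The 60 pairs of replicates differed by 9.89 to 231 times the counting noise, so none was a copy of another.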

Additional observations from a re-analysis of the deposited data

Results flagged for a closer look

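Among 40 sets of 6 tumours (each of the 8 genes, and the share they take together or of mitochondrial messengers, in each group), 4 held a tumour whose gap to the nearest other exceeded Dixon's 95% critical value for the ratio of gap to range; chance gives about 1 in 20. mt-Nd1 at 3304 CPM (next 1947) and mt-Nd2 at 1890 CPM (next 1213) were both in BRQ+PD-1 replicate 1. mt-Nd4 at 1559 CPM (next 1090) was in BRQ+IgG2a replicate 4, a muscle-rich library. mt-Nd4l at 3.11 CPM (next 2.15) was in BRQ+IgG2a replicate 6, where it rests on 72 counts.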

How the results depend on the processing

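The count of called genes among the 8 was 0 in 7 comparisons under relative log expression factors, no filter, no robust estimation and exclusion of the 4 muscle-rich libraries. It was 1 for BRQ+PD-1 against PD-1 (mt-Nd3) under DESeq2 and under limma voom, 0 to 1 when 1 library was left out, and 2 for the averaged brequinar effect (mt-Nd3, mt-Nd4l) under limma voom. With a replicate block the count was 0 in all 7. Same-numbered tumours did not deviate together (36 pairs, r -0.64 to 0.44, 15 above 0.1, and 1 of 24 libraries closest to its own number). These values show no sign of pairing but cannot exclude it, and the labels do not say what the numbers stand for. The block took the genes called among all from 2001 to 1412 for the averaged effect and from 627 to 285, from 554 to 361 and from 808 to 411 for BRQ+PD-1 and BRQ+IgG2a against IgG2a and BRQ+PD-1 against PD-1. Uncalled values that turned sign by at least 1 SE were mt-Nd2 (0.21) and mt-Nd4 (0.17) for BRQ+PD-1 against IgG2a without the muscle-rich libraries. So did the same 2 genes (0.21 and 0.16) and mt-Nd4 for BRQ+IgG2a against IgG2a (0.069) without BRQ+IgG2a replicate 5 as well (this exclusion, and that of BRQ+PD-1 replicate 1 with the muscle-rich libraries, were chosen after seeing the data). So did mt-Nd2 for BRQ+PD-1 against BRQ+IgG2a without BRQ+PD-1 replicate 1 (-0.13, in a leave-one-out range up to 0.24); the cause was not tested. A further 129 of 1368 values of the 8 genes turned sign by less than 1 SE. Counts of all genes called moved more. No filter gave 1379, 431, 297, 377 and 0 for the averaged effect, BRQ+PD-1 against PD-1, BRQ+PD-1 against IgG2a, BRQ+IgG2a against IgG2a and PD-1 against IgG2a. In the same order DESeq2 gave 2651, 1406, 1564, 888 and 35, and limma voom 3797, 2194, 1455, 2113 and 9, beside 2001, 808, 627, 554 and 3 in the main result. Without the muscle-rich libraries 502 were called for BRQ+PD-1 against PD-1, 404 for BRQ+PD-1 against IgG2a and 2 for PD-1 against IgG2a. mt-Nd4l is limited by its 17 to 89 counts.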
